A study of Mus musculus with 10 samples.

Results

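The immunoglobulin heavy chain variable segments (Ighv genes) were followed in stem and progenitor cells of Dnmt3a knockout mice. The members are the Ighv gene IDs with at least 5 raw reads summed over the 5 LSK libraries. This rule took 123 of the 185 Ighv IDs in the LSK table, and 92 of the 123 also had an ID in the GMP table, which lists 108 Ighv IDs. Of the other 62 IDs of the LSK table, 40 had no read and 22 had fewer than 5. The set was chosen because single segments were lower in knockout LSK cells. The comparison of knockout and control LSK is therefore given as a description with no test, and tests are given only for GMP, which the choice did not use.

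RNA was sequenced from LSK cells (lineage-negative, Sca1+ and cKit+, the fraction that holds the haematopoietic stem cells and early multipotent progenitors) and from GMP (granulocyte-macrophage progenitors) of the bone marrow of C57BL/6 mice at 12 months of age. KO mice were homozygous for a floxed allele of the de novo DNA methyltransferase Dnmt3a and carried the Mx1-Cre transgene, which interferon signalling switches on in blood-forming cells and in other interferon-responsive tissues. CTRL mice had the same floxed genotype but no transgene, and mice of both genotypes received 5 injections of poly(I:C), so Dnmt3a deletion and Cre cannot be told apart. There were 3 KO and 2 CTRL libraries of each population. They are named by genotype and title number, and their values are given in the order KO-1327, KO-1333, KO-1334 and CTRL-1326, CTRL-1330 for LSK, and KO-178, KO-179, KO-352 and CTRL-346, CTRL-350 for GMP. LSK libraries held 29533371 to 30437981 reads on genes and GMP libraries 93850256 to 122658636. Sex-linked genes marked LSK KO-1327 and CTRL-1326 as male and KO-1333, KO-1334 and CTRL-1330 as female, and all GMP libraries as male. Dnmt3a stood at 64.0, 57.8 and 65.5 CPM (counts per 1e6 reads, with library sizes normalized by TMM) in LSK KO libraries and at 169 and 168 CPM in LSK CTRL libraries. In GMP it stood at 44.7, 57.4 and 17.7 CPM in the KO libraries and at 127 and 99.0 CPM in the CTRL libraries. The stem and progenitor list, 10 genes such as Kit and Cd34, summed to 2881 to 3362 CPM in LSK KO and to 2972 and 3552 CPM in LSK CTRL, and the GMP list, 7 genes such as Mpo, to 12380 to 17640 CPM in GMP KO and to 16120 and 21510 CPM in GMP CTRL. One label of GMP library KO-352 names the LSK data, against its title, so results in GMP are also given without it.

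An antibody heavy chain gene is put together in developing B cells when the Rag recombinase joins 1 of the many V segments to a D and a J segment. Each V segment codes for a leader peptide and for the variable domain up to the third complementarity-determining region, which binds antigen. Unrearranged segments can also be transcribed at a low level in early lymphoid progenitors, and in bulk RNA a read on a V segment does not show whether the segment had been joined. Abundant V reads are typical of B cells and above all of plasma cells, in which each clone uses 1 heavy chain V segment. Mouse V segments are grouped into families by sequence likeness, and the first number of a symbol names the family.

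The 123 members lay on the minus strand of chromosome 12 of GRCm38, between positions 113572927 and 116000461, and belonged to 15 families. Family 1 was the largest with 64 members, followed by family 8 with 11, family 5 with 10, family 2 with 8 and family 3 with 7. By GENCODE vM21 96 members were functional V genes and 27 were V pseudogenes. Their exons summed to 294 to 480 bases, with a median of 353. A read maps to 1 segment only where that segment differs from its relatives, and the GMP table lists reads aligned to several places apart from the genes. Of the 50-base stretches of a member's transcript, a median of 78.1% occurred in no other Ighv transcript, and in 14 members fewer than 50% did. The nearest relative of a member was identical at a median of 92.0% of aligned positions. Across the 123 members Spearman's rho between this unique share and the LSK reads was -0.0381, as a description. Values of members with a small unique share, such as Ighv1-53 with 42.4%, are uncertain for this reason.

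The last 120 coding bases of 8 segments on which the results turn are given here, 5′ to 3′ in the sense of the gene, from GENCODE vM21 transcripts on GRCm38; each stretch lies within the V exon and on the minus strand. They are shown because reads must be told apart in this region and because it holds the end of framework 3. The capitals mark the motif TANTNNTGN, which codes for tyrosine, another residue (tyrosine or phenylalanine in the segments shown) and the conserved cysteine before the third complementarity-determining region.
Ighv7-1 (chr12:113896408-113896527): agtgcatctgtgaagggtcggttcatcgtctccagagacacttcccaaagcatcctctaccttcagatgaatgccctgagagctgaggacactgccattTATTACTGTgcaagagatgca
Ighv7-3 (chr12:114153180-114153299): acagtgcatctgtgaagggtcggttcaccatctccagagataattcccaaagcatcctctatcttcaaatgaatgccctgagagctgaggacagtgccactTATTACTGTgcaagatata
Ighv9-3 (chr12:114140692-114140811): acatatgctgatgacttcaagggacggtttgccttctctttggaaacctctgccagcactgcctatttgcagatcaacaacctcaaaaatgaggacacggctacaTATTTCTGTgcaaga
Ighv3-6 (chr12:114288152-114288271): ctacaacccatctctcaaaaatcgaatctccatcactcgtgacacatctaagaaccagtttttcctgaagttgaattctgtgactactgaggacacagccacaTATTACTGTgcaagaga
Ighv3-5 (chr12:114262652-114262771): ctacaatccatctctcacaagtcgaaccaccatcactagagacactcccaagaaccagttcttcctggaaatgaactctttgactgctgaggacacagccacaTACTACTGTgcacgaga
Ighv1-22 (chr12:114746273-114746392): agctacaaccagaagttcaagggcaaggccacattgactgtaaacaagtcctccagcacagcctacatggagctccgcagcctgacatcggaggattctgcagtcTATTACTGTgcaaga
Ighv1-9 (chr12:114583569-114583688): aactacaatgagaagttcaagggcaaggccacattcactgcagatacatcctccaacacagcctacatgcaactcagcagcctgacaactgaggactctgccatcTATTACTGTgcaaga
Ighv1-53 (chr12:115158403-115158522): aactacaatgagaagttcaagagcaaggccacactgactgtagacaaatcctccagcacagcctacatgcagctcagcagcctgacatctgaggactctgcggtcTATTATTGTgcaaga
The motif was found in the last 30 coding bases of 94 of the 96 functional members (97.9%), and on the other strand of 0%. It was present in the last 30 bases of 2.23% of 58791 protein-coding transcripts, and on the other strand of 3.86%. Those are ends of whole transcripts, untranslated bases included, and not coding ends, so the shares are not like for like. Ighv7-1 and Ighv7-3, of the same family, were identical at 88.7% of aligned coding positions, Ighv3-6 and Ighv3-5 at 84.7%, and Ighv1-22 and Ighv1-9 at 83.5%. Ighv7-1 and Ighv9-3, of different families, were identical at 57.5%. Each of the 50-base stretches of Ighv7-1 was unique among Ighv transcripts (100%).

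Summed over the 123 members, the LSK KO libraries held 3006, 3532 and 2851 reads and the LSK CTRL libraries 4483 and 5317. The sum averaged 104 ± 14.9 CPM in KO (SD, n = 3) and 165 ± 17.3 CPM in CTRL (SD, n = 2), a ratio of 0.630. Every KO library lay below both CTRL libraries, and the highest KO library, KO-1333 at 121 CPM, stood next to the lower CTRL library, CTRL-1326 at 153 CPM. The ratio was 0.648 between the male libraries and 0.601 between the female libraries, and it ranged from 0.579 to 0.680 when each library was left out. In bulk RNA, fewer cells that carry such transcripts and less of the RNA per cell cannot be told apart.

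**Figure D1:**
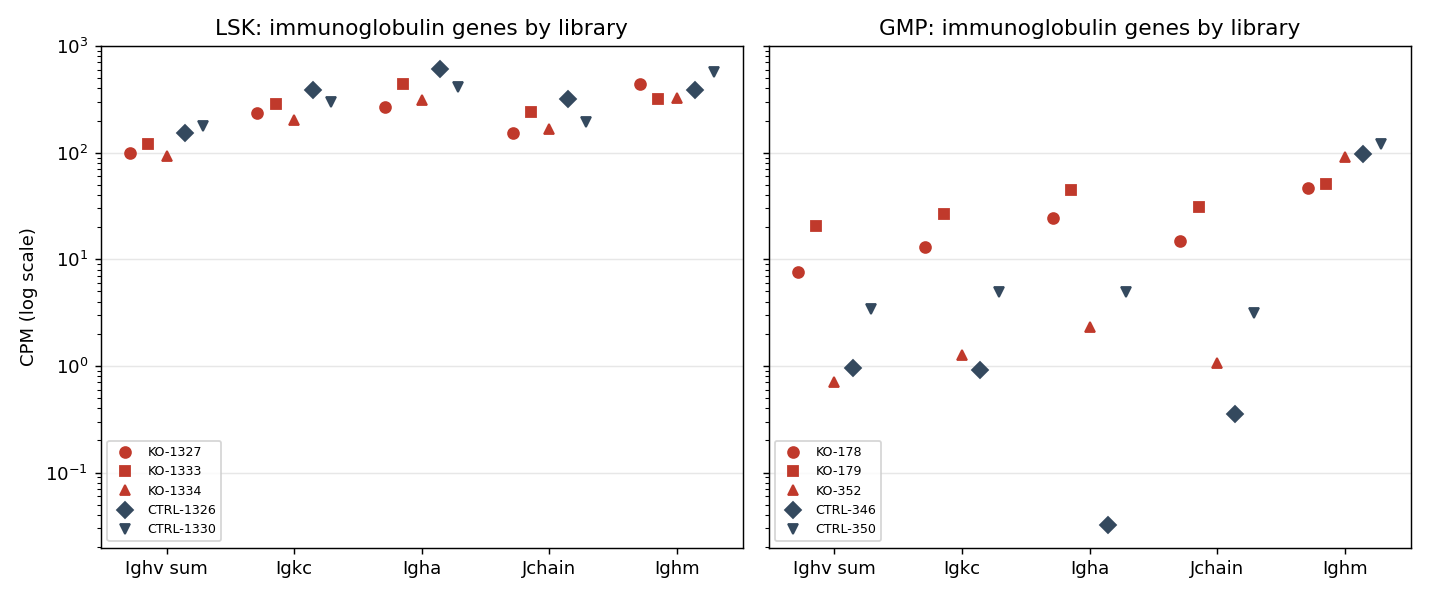
CPM on a log scale (1 point per library, KO red and CTRL dark) of the summed Ighv members, the kappa constant gene Igkc, the IgA constant gene Igha, the joining chain gene Jchain and the IgM constant gene Ighm, in LSK (left) and GMP (right). The LSK Ighv sums of KO lie at 92.2 to 121 CPM and those of CTRL at 153 and 177 CPM, whereas the GMP sums of KO spread from 0.708 to 20.5 CPM around the CTRL values of 0.949 and 3.41 CPM.

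Most single segments had a lower mean CPM in KO LSK. That was so for 87 of the 123 members (70.7%), beside 48.7% of all genes with at least 5 LSK reads. In 30 members (24.4%) every KO library lay below both CTRL libraries, beside 7.94% of all such genes, and in 6 members (4.88%) every KO library lay above both, beside 7.81%. The set was chosen on this contrast, so these shares support nothing further. Of the 123 members 76 passed the filter of the count model, which needs about 10 reads in 2 libraries.

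Ighv7-1, the V segment of phosphorylcholine-binding natural antibodies, had the most reads. It held 251, 59 and 65 reads in KO and 253 and 825 in CTRL. CTRL-1330 stood far above the other 4 libraries, and the male pair KO-1327 and CTRL-1326 had nearly the same number of reads. The mean was 4.13 ± 3.58 CPM in KO (n = 3) and 18.1 ± 13.4 CPM in CTRL (n = 2), and the difference of -13.9 CPM made up 22.8% of the difference of the whole sum, -61.0 CPM. With Ighv7-1 left out, the ratio of the sums was 0.679. Per kilobase of exon, Ighv7-1 also had the highest level of the members, 26.7 CPM per kb over the LSK libraries, against a median of 1.61 and a lowest value of 0.095.

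Ighv9-3 was the next in number of reads. It held 86, 208 and 56 reads in KO and 293 and 223 in CTRL, a ratio of mean CPM of 0.450. The KO and CTRL libraries did not overlap, and KO-1333 came close to CTRL-1330. Ighv7-3, the relative of Ighv7-1, held 21, 34 and 92 reads in the same KO libraries and 101 and 139 in the CTRL libraries. For Ighv7-3 the KO library with the most reads was KO-1334, one of those with few Ighv7-1 reads. Ighv6-6 held 12, 103 and 87 reads in KO and 121 and 132 in CTRL, with KO-1327 far below the others.

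Other abundant segments overlapped between the genotypes. Ighv3-6 held 88, 159 and 87 reads in KO and 105 and 171 in CTRL. Ighv1-9 held 89, 95 and 123 reads in KO and 85 and 180 in CTRL. The order of the libraries differed between these segments, with CTRL-1330 highest in both. The pseudogene Ighv3-2 held 42, 131 and 127 reads in KO and 185 and 109 in CTRL. Ighv3-8 held 18, 158 and 83 reads in KO and 134 and 54 in CTRL. Ighv5-6 had 2.53, 2.29 and 2.01 CPM in KO and 6.07 and 1.23 CPM in CTRL. In Ighv3-2, Ighv3-8 and Ighv5-6 the 2 CTRL libraries lay on either side of at least 1 KO library.

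**Figure D2:**
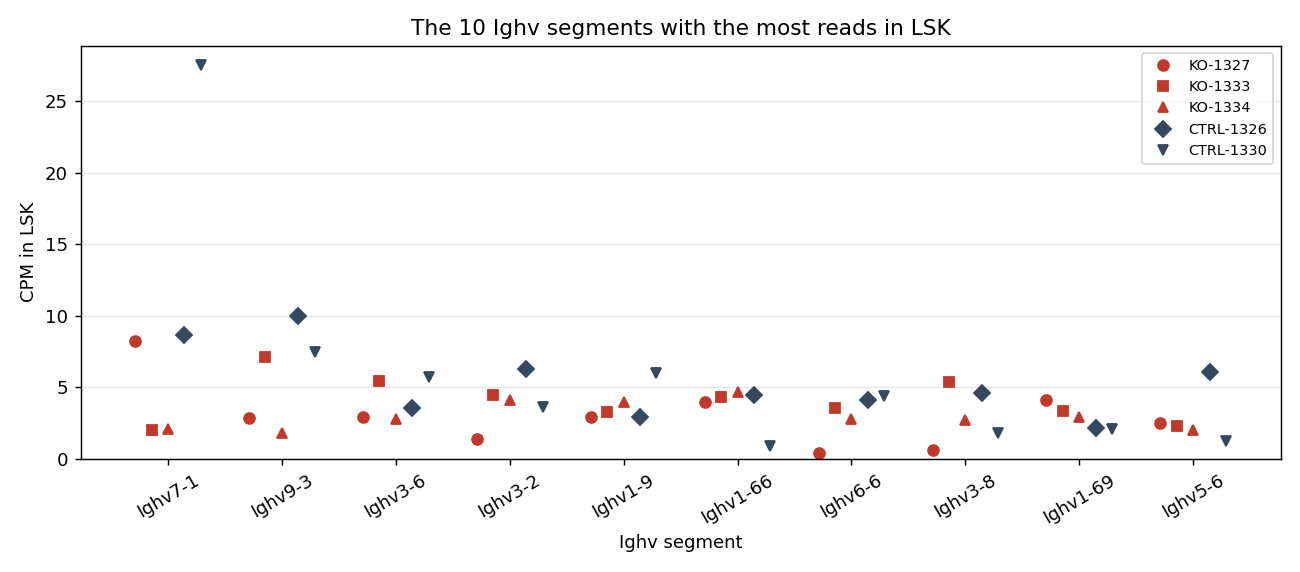
CPM in each LSK library (1 point per library, KO red and CTRL dark) of the 10 Ighv segments with the most LSK reads. Ighv7-1 in CTRL-1330 stands apart at 27.5 CPM, Ighv9-3 and Ighv6-6 are lower in every KO library, and Ighv1-69 is higher in every KO library.

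A few segments ran the other way. Ighv1-69 held 124, 98 and 90 reads in KO and 64 and 63 in CTRL, a ratio of 1.61. All 3 KO libraries lay above both CTRL libraries. Ighv1-66 held 121, 127 and 145 reads in KO and 131 and 27 in CTRL, so its ratio of 1.62 came from the low value of CTRL-1330. Ighv5-17, Ighv8-5, Ighv1-60, Ighv1-71 and Ighv1-73 were the other members with every KO library above CTRL. Of these, Ighv1-73 was named after its values were seen. Ighv1-71 held 3, 17 and 5 reads in KO and 0 in both CTRL libraries. Only 2.58% of the 50-base stretches of Ighv1-71 are unique among Ighv transcripts, so its reads are uncertain. Ighv1-69 shares sequence with Ighv1-53 and has a unique share of 61.4%.

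The lowest ratios stood in segments of few reads. Of the 99 members with at least 20 LSK reads, 14 had a ratio under 0.2, and in 8 of the 14 both CTRL libraries lay above all KO libraries. The 14 were picked by a low ratio in the contrast that chose the set, so this count supports nothing further. The same count was not made over all genes. The lowest ratios of all rested on 1 CTRL library each. Ighv5-16 had 28 reads in CTRL-1330 and 0 in the other 4 LSK libraries. Ighv15-2 had 1, 0 and 0 reads in KO and 24 and 0 in CTRL-1326 and CTRL-1330. Ighv8-4 had 1, 0 and 0 reads in KO and 19 and 0 in the same CTRL libraries. In Ighv2-9-1, with 0, 1 and 0 reads in KO and 2 and 25 in CTRL, CTRL-1330 held nearly all reads. Ighv3-5 was different, with 2, 3 and 0 reads in KO and 46 and 34 in CTRL, a ratio of 0.0416. Both CTRL libraries carried it, and no KO library did beyond 3 reads, while its relative Ighv3-6 overlapped between the genotypes.

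The other segments with a ratio under 0.2 that passed the filter were of both kinds. Ighv2-3 held 0, 25 and 2 reads in KO and 89 and 63 in CTRL, a ratio of 0.119. Ighv1-22 held 3, 6 and 7 reads in KO and 38 and 48 in CTRL, a ratio of 0.122. Ighv9-4 held 7, 1 and 8 reads in KO and 35 and 47 in CTRL, and Ighv2-5 held 3, 1 and 15 in KO and 48 and 48 in CTRL. In these segments both CTRL libraries lay above all KO libraries. Ighv1-26 held 5, 16 and 3 reads in KO and 10 and 124 in CTRL, and Ighv1-19 held 0, 6 and 11 in KO and 7 and 77 in CTRL. There the genotypes overlapped, and CTRL-1330 held most of the reads. Among the highest ratios, Ighv13-2 had 21, 1 and 0 reads in KO and 1 in each CTRL library, and Ighv11-1 had 24, 0 and 23 in KO and 2 and 0 in CTRL. Ighv1-60 had 14, 15 and 7 reads in KO and 1 and 3 in CTRL, so its reads were spread over all KO libraries.

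Some members had reads in 1 LSK library and nearly none in another. Of 79 members with at least 20 reads in some LSK library, 19 had 0 or 1 read in another. Ighv11-2, a segment known from phosphatidylcholine-binding B-1 cells, held 122, 0 and 97 reads in KO and 4 and 185 in CTRL. KO-1333 had no read of it, while CTRL-1330 and KO-1327 had more than 100, so the libraries differed more within each genotype than between the means. The lowest value of the 19 members was in a KO library for 13, in a CTRL library for 2 and in both for 4. The library with the most reads was KO-1327 for 16, KO-1333 for 22, KO-1334 for 11, CTRL-1326 for 31 and CTRL-1330 for 43 of the 123 members. With 3 KO and 2 CTRL libraries, and a set chosen for lower values in KO, these counts support nothing further. They were not made over all genes.

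The reads were spread over many segments in each LSK library. The KO libraries had reads on 109, 107 and 94 members and the CTRL libraries on 111 and 110. The most abundant segment was Ighv7-1 with 8.35% of the Ighv reads in KO-1327 (95% Wilson interval 7.41 to 9.39), Ighv9-3 with 5.89% in KO-1333 (5.16 to 6.71) and Ighv1-66 with 5.09% in KO-1334 (4.34 to 5.96). In the CTRL libraries it was Ighv9-3 with 6.54% in CTRL-1326 (5.85 to 7.30) and Ighv7-1 with 15.5% in CTRL-1330 (14.6 to 16.5). These intervals cover counting error only. The effective number of segments, the inverse of the sum of squared shares, was 36.1, 41.6 and 42.5 in KO and 42.9 and 25.3 in CTRL. CTRL-1330 was the least even library, and CTRL-1326 lay beside KO-1334. Over the 123 members Spearman's rho of the read counts was 0.702 to 0.761 between KO libraries, 0.532 to 0.775 between a KO and a CTRL library and 0.629 between the CTRL libraries, as a description over segments of shared sequence.

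Families differed in how far their sums stood apart. Family 7 had 5.90 ± 2.88 CPM in KO (n = 3) and 22.6 ± 13.9 CPM in CTRL (n = 2), a ratio of 0.261. The ratio was 0.462 without CTRL-1330 and 0.393 without Ighv7-1. Family 9 had 6.13 ± 3.13 CPM in KO and 13.0 ± 1.61 CPM in CTRL, a ratio of 0.472. In families 1, 7, 9 and 14 every KO library lay below both CTRL libraries, with ratios of 0.701 for family 1 and 0.615 for family 14. Family 1, the largest, had 43.2, 47.5 and 35.6 CPM in KO and 53.6 and 66.6 CPM in CTRL. Families 2, 3, 5 and 6 had ratios of 0.541, 0.743, 0.795 and 0.488 with overlapping libraries. With each library left out in turn, the ratio ran from 0.40 to 0.73 for family 2 and from 0.54 to 0.94 for family 3. It ran from 0.67 to 0.97 for family 5 and from 0.31 to 0.66 for family 6. Family 4 also overlapped, and its ratio ran from 0.41 without KO-1334 to 1.99 without CTRL-1330. Family 8 had 6.94 ± 0.945 CPM in KO and 6.53 ± 0.660 CPM in CTRL, a ratio of 1.06, so its difference was smaller than the spread within either genotype. In families 10 and 11 libraries of 1 genotype lay far apart. Family 10 had 76, 125 and 31 reads in KO and 194 and 13 in CTRL, and family 11 had 146, 0 and 120 reads in KO and 6 and 185 in CTRL. Families 12, 13 and 15 had at most 24 reads in any library.

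**Figure D3:**
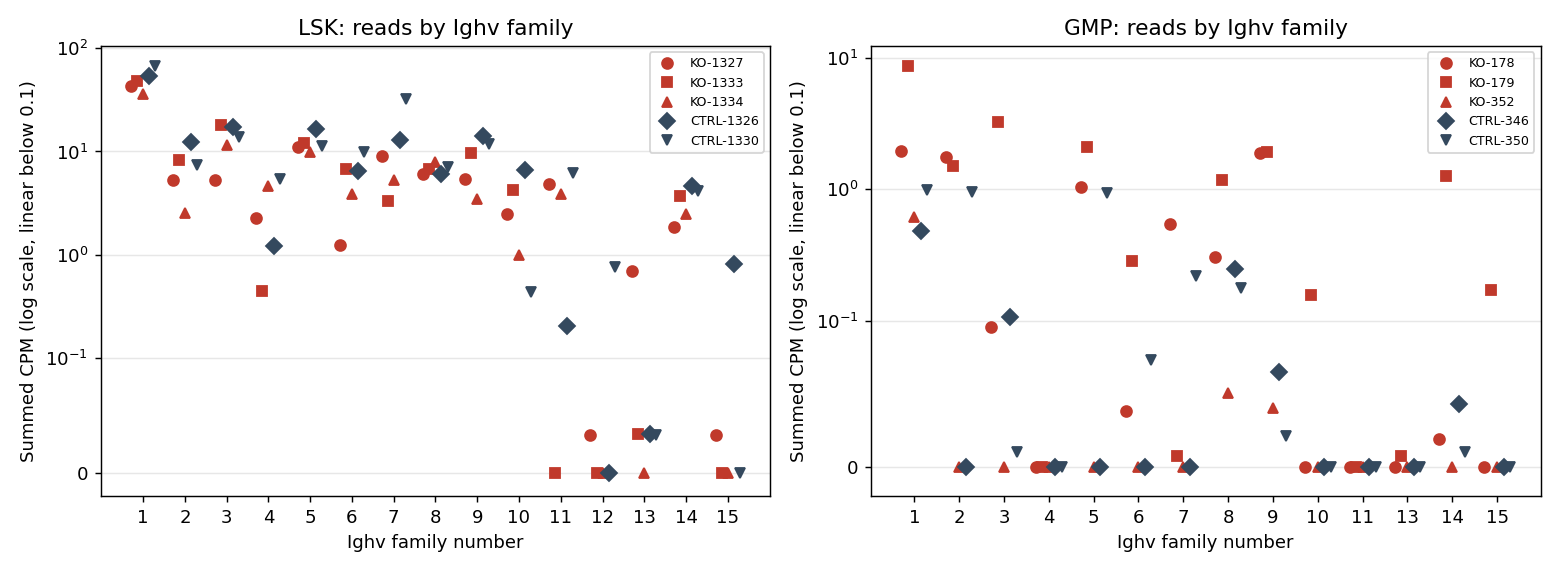
Summed CPM of each Ighv family (log scale, linear below 0.1) in LSK (left) and GMP (right), 1 point per library, KO red and CTRL dark. In LSK the KO points of families 1, 7, 9 and 14 lie below both CTRL points and those of family 8 mix with them, and in GMP the points of KO-179 are the highest for families 1, 3, 5, 6, 8, 9, 10, 13, 14 and 15.

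Along the locus the sums were lower in KO LSK in each of 3 stretches of 41 members. The 41 members nearest the D segments summed to 45.2 ± 4.46 CPM in KO (n = 3) and 83.0 ± 11.9 CPM in CTRL (n = 2), a ratio of 0.544, or 0.632 without Ighv7-1. The next 41 summed to 25.3 ± 9.21 CPM in KO and 44.2 ± 2.21 CPM in CTRL, a ratio of 0.572. The farthest 41, most of them of family 1, summed to 33.5 ± 2.61 CPM in KO and 37.8 ± 3.15 CPM in CTRL, a ratio of 0.887. KO libraries lay below both CTRL libraries in all 3 stretches, but in the farthest one KO-1327 at 35.1 CPM was next to CTRL-1326 at 35.6 CPM. The difference between the stretches was not tested. As a share of all Ighv reads, the farthest stretch held 35.5%, 29.0% and 33.1% in KO and 23.3% and 22.6% in CTRL. Functional segments summed to a ratio of 0.619 and pseudogenes to 0.759, and pseudogenes held 8.32%, 8.69% and 10.7% of the reads in KO and 7.83% and 7.41% in CTRL.

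**Figure D4:**
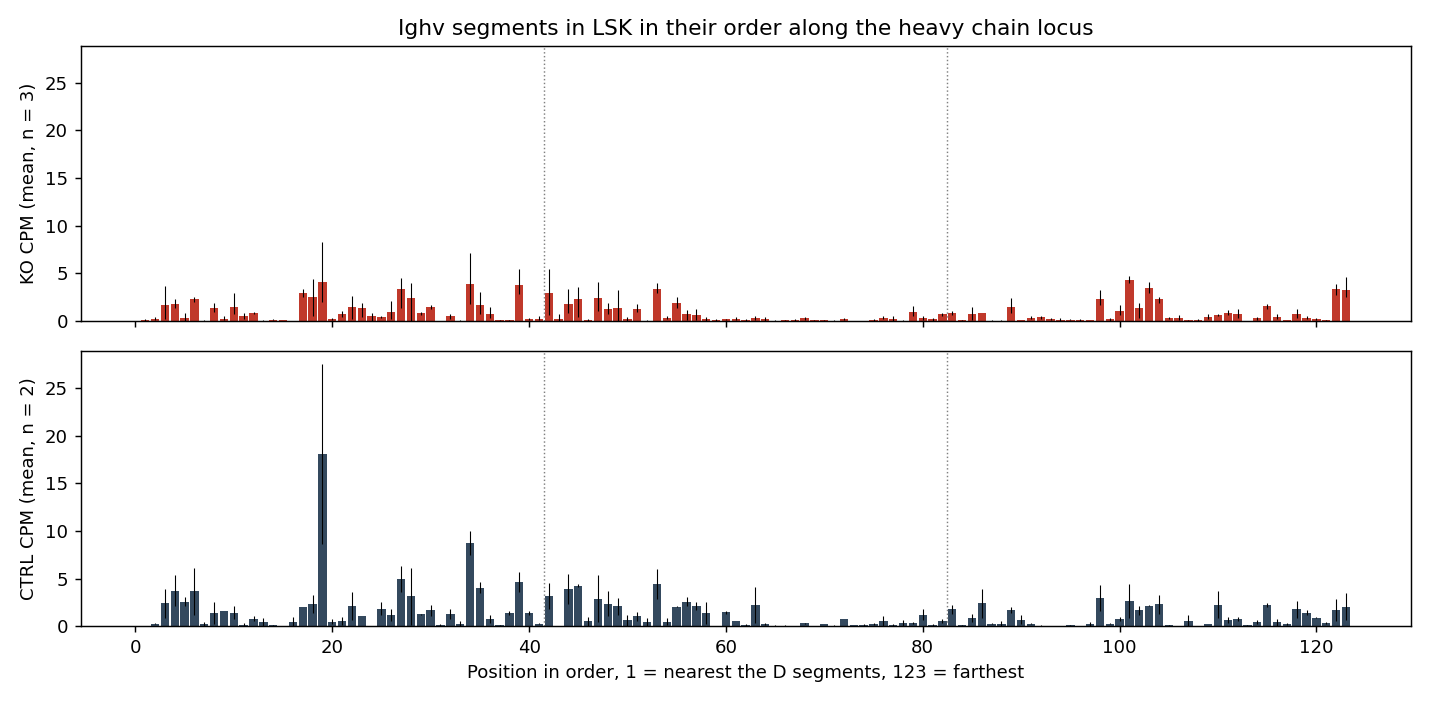
Mean CPM of each member in LSK (bars, KO above and CTRL below) in the order of the segments along the heavy chain locus, from the D segments outward; thin lines run from the lowest to the highest library and dotted lines bound the 3 stretches of 41 segments. The tallest CTRL bar is Ighv7-1 at position 19 with a mean of 18.1 CPM, and beyond position 82 single bars differ in both directions while their sums are 33.5 CPM in KO and 37.8 CPM in CTRL.

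Other immunoglobulin genes were set beside the segments in LSK. Igkc, the kappa constant gene, had 234, 283 and 201 CPM in KO and 389 and 296 CPM in CTRL, a ratio of 0.698. All KO libraries lay below both CTRL libraries, with KO-1333 close to CTRL-1330. For every 100 reads of Igkc there were 42.4, 42.6 and 45.9 Ighv reads in KO and 39.3 and 59.9 in CTRL. The ratio of heavy chain V reads to kappa constant reads thus overlapped between the genotypes. Of 81 kappa V segments with at least 5 reads, 52 had a lower mean in KO, beside 48.7% of all genes with at least 5 LSK reads. In 17 of the 81 every KO library lay below both CTRL libraries, beside 7.94%, and in 7 every KO library lay above both, beside 7.81%. The sum of the kappa V segments had a ratio of 0.691 with overlapping libraries. Igha, the IgA constant gene, had 268, 445 and 314 CPM in KO and 612 and 410 CPM in CTRL. Jchain, which links the chains of secreted IgA and IgM, had 154, 242 and 165 CPM in KO and 315 and 195 CPM in CTRL. In both, KO-1333 lay above CTRL-1330. Ighg2b, the IgG2b constant gene, had 123, 275 and 73 reads in KO and 879 and 416 in CTRL, all KO libraries below CTRL. Of the 8 heavy chain constant genes with at least 5 LSK reads, only Igha, Ighg2b and Ighm had a lower mean in KO. That is 3 of 8, beside 48.7% of all genes with at least 5 LSK reads. The sum of the 8 had a ratio of 0.707, but the median log2 fold change of the 7 tested was 0.004, beside 0.0027 over all genes tested.

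Of the 13 genes of the B cell list, 1 had a lower mean in KO LSK, beside 48.7% of all genes, and in 2 every KO library lay above both CTRL libraries. The median log2 fold change of the list was 0.30, beside 0.0027 over all genes tested. Of the 9 plasma cell genes, 4 had a lower mean, with a median of 0.03 on the same scale. The B cell list summed to 201, 159 and 152 CPM in KO and to 158 and 137 CPM in CTRL, so KO-1327 stood apart and the other KO libraries lay beside CTRL-1326. The plasma cell list summed to 335 to 445 CPM in KO and 392.2 to 492.3 CPM in CTRL. No defining gene of either list was at 0. The part of such cells in the Ighv difference was not tested.

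Genes around the locus and its known regulators differed little. The summed CPM of the heavy chain locus neighbours had a ratio of 0.986 in LSK, and that of 17 regulators, such as Ikzf1 and Ctcf, a ratio of 0.996. The D and J segments summed to 4.28, 4.10 and 4.56 CPM in KO and 3.37 and 5.00 CPM in CTRL. Their libraries overlapped, and most of these reads were on the J segments. Rag1, which cuts the segments for joining, had 1103, 414 and 385 reads in KO and 544 and 348 in CTRL. T cell receptor V segments, joined by the same recombinase in T cells, summed to 4.58, 4.79 and 3.75 CPM in KO and 5.25 and 4.83 CPM in CTRL, a ratio of 0.867. Every KO sum lay below both CTRL sums, with KO-1333 close to CTRL-1330. Of 30 such segments with at least 5 LSK reads, 20 had a lower mean in KO, beside 48.7% of all such genes. In 6 of the 30 every KO library lay below both CTRL libraries, beside 7.94%, and in 0 every KO library lay above both, beside 7.81%.

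In GMP, the same gene IDs carried far fewer reads, and the genotypes overlapped in their sum. The 92 IDs summed to 797, 2606 and 70 reads in KO and to 88 and 326 reads in CTRL. The mean was 9.61 ± 10.04 CPM in KO (SD, n = 3) and 2.18 ± 1.74 CPM in CTRL (SD, n = 2), a ratio of 4.41. KO-352 was the lowest of the 5 libraries and KO-179 the highest, so the genotypes overlapped and the spread within KO exceeded the difference. The ratio was 1.91 without KO-179, 2.82 without CTRL-346, 10.1 without CTRL-350 and 6.46 without KO-352. In LSK the same 92 IDs summed to 90.4, 108 and 77.5 CPM in KO and to 137 and 158 CPM in CTRL. The LSK and GMP tables list different numbers of gene IDs (45513 and 38924) and were scaled separately. The levels of the populations are therefore only set side by side.

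Of the 92 IDs 11 had no read in GMP, 68 had a higher and 13 a lower mean CPM in KO. Without KO-179 the mean was higher in KO for 36 and lower for 32. The 2 CTRL libraries together had no read on 41. Of the 92 IDs, 69 had at least 5 GMP reads. Of these 69, 13 had a lower mean in KO, beside 46.8% of all genes with at least 5 GMP reads. In 2 of the 69, Ighv1-53 and Ighv1-72, every KO library lay above both CTRL libraries, beside 15.1% of all such genes. In 1 of the 69, Ighv1-42, every KO library lay below, beside 13.7%. Ighv1-72, the segment of the classical response to the hapten nitrophenyl in C57BL/6 mice, and Ighv1-42 had at most 7 reads in a library and were named after their values were seen. Only 7.49% of the 50-base stretches of Ighv1-72 are unique among Ighv transcripts, so its reads are uncertain.

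Of the 92 IDs 12 passed the filter of the GMP fit. With edgeR 0 of them reached an adjusted p of 0.05 (lowest 0.306), where 0.0347% of all 17290 genes tested did (6 genes). An unadjusted p under 0.05 with edgeR was reached by 4, Ighv9-3, Ighv2-9, Ighv2-6 and Ighv1-53, beside 13.8% of all genes tested. All 4 passed the filter only through KO libraries in which they were high. Ighv2-9 and Ighv2-6 had 0 reads in both CTRL libraries, so this count supports nothing further. DESeq2 called 1 member, Ighv9-3, with an adjusted p of 0.0469, where it called 4.4% of 16394 genes, and limma-voom called 0. Without KO-352 edgeR called 2, Ighv9-3 with an adjusted p of 0.0289 and Ighv2-9 with 0.0492, where it called 1.01% of all genes. Both segments passed the filter through KO-178 and KO-179, where they were high, and Ighv2-9 had 0 reads in both CTRL libraries, so these calls support nothing further.

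Ighv9-3 held 196, 189 and 4 reads in KO and 4 and 1 in CTRL. KO-178 and KO-179 were high, and KO-352 was level with CTRL-346. On the log2 scale the fitted fold change was 5.35 with an SE of 1.64, and the adjusted p of edgeR was 0.311. Over the alternatives with both CTRL libraries in which Ighv9-3 was tested, the adjusted p ran from 0.0289 (edgeR without KO-352) to 0.536 (limma-voom). Without KO-178 or without KO-179 it did not pass the filter. Ighv1-53 held 7, 52 and 24 reads in the KO libraries and 2 and 2 in the CTRL libraries. All KO libraries lay above CTRL, and the fitted log2 difference was 3.43 with an SE of 1.01 (adjusted p = 0.306 with edgeR). Over the alternatives with both CTRL libraries in which Ighv1-53 was tested, the adjusted p ran from 0.0821 (DESeq2) to 0.762 (edgeR without KO-178). Without KO-179 or without KO-352 it did not pass the filter. Ighv2-9 held 52, 49 and 0 reads in KO and 0 in both CTRL libraries, and Ighv2-6 held 107, 34 and 0 in KO and 0 in both CTRL libraries. KO-352 thus resembled CTRL in both segments of family 2, and their fitted fold changes against 0 reads are not given.

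Other segments of GMP were carried by a single library. Ighv3-6 held 0, 385 and 0 reads in KO and 4 and 0 in CTRL. Ighv1-9 had 0, 1.41 and 0.0101 CPM in KO and 0 and 0.0104 CPM in CTRL. In both KO-179 alone had more than 4 reads. Ighv2-2 held 5, 73 and 0 reads in KO and 0 and 92 in CTRL, with a log2 difference of -1.18 (adjusted p = 0.795 with edgeR). Ighv5-17 held 0, 80 and 0 reads in KO and 0 and 71 in CTRL. Here KO-179 and CTRL-350 were the high libraries, 1 of each genotype. The remaining members that passed the filter, Ighv5-6, Ighv1-19, Ighv5-9, Ighv1-74, Ighv8-6 and Ighv1-59, had adjusted p of 0.362 to 0.916 with edgeR.

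**Figure D5:**
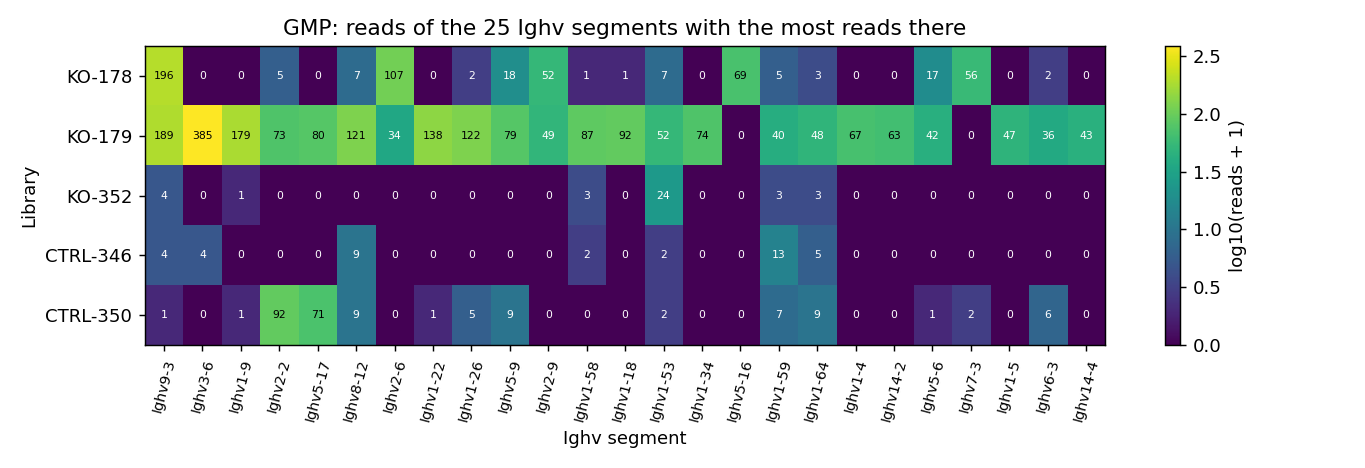
Reads of the 25 Ighv segments with the most GMP reads, one row per library (KO above, CTRL below), coloured by log10 of reads plus 1. KO-179 has reads on nearly all columns, KO-178 and CTRL-350 on fewer, and KO-352 and CTRL-346 have at most 24 reads in any column.

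The 10 leading segments of each GMP library held 75.5%, 56.5% and 78.6% of its Ighv reads in KO and 77.3% and 75.5% in CTRL. Ighv9-3 held 24.6% of the Ighv reads in KO-178 (95% Wilson interval 21.7 to 27.7), Ighv3-6 held 14.8% in KO-179 (13.5 to 16.2) and Ighv1-53 held 34.3% in KO-352 (24.3 to 46.0). In CTRL-346 Ighv1-59 led with 14.8% (8.84 to 23.7), and in CTRL-350 Ighv2-2 led with 28.2% (23.6 to 33.3). The leading segment thus differed in all 5 libraries. Reads fell on 51, 73 and 22 members in KO and on 23 and 42 in CTRL, and the effective number of segments was 9.70, 20.1 and 6.90 in KO and 13.3 and 7.20 in CTRL. Spearman's rho over the 92 IDs was 0.0146 to 0.107 between KO libraries, 0.159 to 0.401 between a KO and a CTRL library and 0.222 between the CTRL libraries, as a description.

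The GMP libraries with many Ighv reads also had many reads of other secreted immunoglobulin genes. Igkc had 12.9, 26.5 and 1.27 CPM in KO and 0.917 and 4.95 CPM in CTRL. Igha had 24.1, 45.1 and 2.30 CPM in KO and 0.0324 and 4.96 CPM in CTRL. Jchain had 1566, 3933 and 106 reads in KO and 33 and 298 in CTRL. For each, KO-179 was the highest and KO-178 the next, as for the Ighv sum. Of the 13 B cell genes 12 had a lower mean in KO, with a median log2 fold change of -0.70 beside 0.0106 over all genes tested, and edgeR called 0 of them. The B cell list summed to 85.4 to 98.0 CPM in KO and to 101 and 107 CPM in CTRL, and the plasma cell list of 9 genes to 316 to 349 CPM in KO and to 327.5 and 328.1 CPM in CTRL. Single plasma cell genes varied more than this sum, and 5 of the 9 had a lower mean in KO. Mzb1 had 17, 46 and 1 reads in KO and 0 and 5 in CTRL. Prdm1 had 33, 33 and 5 reads in KO and 1 and 10 in CTRL. Sdc1 was instead highest in KO-352, with 165, 127 and 398 reads in KO and 174 and 81 in CTRL. Of the defining genes of both lists, Ebf1, Pax5, Blk, Mzb1 and Tnfrsf17 had 0 reads in at least 1 GMP library. The neutrophil granule genes Camp and Ltf were, like the segments, lowest in KO-352 and CTRL-346. Camp had 122, 347 and 10.3 CPM in KO and 20.3 and 171 CPM in CTRL. Ltf had 107, 187 and 3.67 CPM in KO and 2.04 and 169 CPM in CTRL. Reads outside annotated genes made up 15.5%, 16.1% and 10.3% of all reads listed in KO and 8.5% and 14.2% in CTRL. The part of these features in the Ighv reads of GMP was not tested.

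Ighm, the IgM constant gene, had 436, 315 and 328 CPM in LSK KO and 387 and 569 CPM in LSK CTRL, a ratio of 0.752 with overlapping libraries. In GMP its mean was lower in KO, unlike that of the Ighv sum. It had 46.9, 51.3 and 90.7 CPM in KO and 96.8 and 119 CPM in CTRL (log2 difference -0.78, SE 0.28, adjusted p = 0.336 with edgeR). Without KO-352, the KO library nearest to CTRL, the adjusted p of edgeR was 0.0383, where 1.01% of all genes were called. That was the lowest adjusted p of the alternatives run. For every 100 Ighm reads there were 16.3, 39.9 and 0.780 Ighv reads in GMP KO and 0.981 and 2.85 in GMP CTRL. In LSK there were 22.7, 38.3 and 28.1 in KO and 39.4 and 31.2 in CTRL. KO-352, CTRL-346 and CTRL-350 thus had abundant Ighm with few V reads, whereas KO-178, KO-179 and the LSK libraries had V reads at a share above 16 for every 100.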

How the data were processed

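Total RNA of 10 sorted samples was sequenced from ribosomal RNA-depleted, stranded libraries, per the labels' protocols. The authors deposited raw tables of counts, with 1 row for each Ensembl gene ID. The submitters' processing notes name STAR, DESeq2 1.4.5, DESeq 1.18.0 and HTSeq 0.5.3p3 on GRCm38. The sources used here do not give the annotation release or the strand setting of the counting. The normalized tables, also deposited, hold a signal in which each library's raw counts are divided by a size factor, and served to recover those factors for an alternative scaling. Lines of totals in the GMP table, which name no gene, stayed out of library sizes (reads outside genes 8.5% to 16.1%, ambiguous 1.14% to 1.32%, aligned to several places 26.3% to 29.0% of reads listed).

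The members and gene lists were chosen with earlier results of these data known. Symbols, coordinates (1-based) and transcripts are from GENCODE vM21. LSK and GMP were fitted separately with edgeR 4.0.16 (R 4.3.3): filterByExpr with a minimum count of 10, TMM, the two-sided quasi-likelihood test and Benjamini-Hochberg adjustment over all genes tested, with a threshold of 0.05 and 3 residual degrees of freedom. The step was tested on simulated data. CPM uses the TMM library sizes. Alternatives were DESeq2 1.42.0, limma-voom 3.58.1, other size factors, no filter, a sex term and each library left out. Segments named are the 10 with the most LSK reads, those that passed a filter, those with the 5 lowest and 3 highest LSK ratios at 20 reads or more, and the 3 with the most GMP reads; exceptions are marked. At the threshold, Ighv1-30, Ighv1-38 and Ighv8-15 had 5 reads and Ighv8-7, Ighv1-32 and Ighv1-17-1 had 4. Ighv1-5 and Ighv1-2 overlap microRNA genes on their own strand, and Ighv1-57 overlaps a long noncoding RNA gene on the other, so their reads are uncertain. The series describes the samples as animals, but no label ties each library to a separate one, so p-values measure the spread between libraries.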

Additional observations from a re-analysis of the deposited data

Results flagged for a closer look

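Ighv1-53 ran in opposite directions in the 2 populations. In LSK it held 21, 31 and 18 reads in KO and 39 and 67 in CTRL, with every KO library below both CTRL libraries and a ratio of mean CPM of 0.437. In GMP it held 7, 52 and 24 reads in KO and 2 and 2 in CTRL, with every KO library above. The difference between the populations was not tested, and only 42.4% of its 50-base stretches are unique among Ighv transcripts.

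Ighv IDs outside the members also carried reads in GMP. The 16 such IDs of the GMP table together had 26, 149 and 0 reads in KO and 5 and 1 in CTRL. Ighv1-20 accounted for 88 of those in KO-179 and Ighv1-16 for 53, and in LSK they had 1 and 0 reads over all 5 libraries; both were named after their values were seen.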

How the results depend on the processing

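With each library left out in turn, the LSK ratio of the Ighv sums ranged from 0.579 to 0.680 (0.630 with all), the count of LSK members with a lower KO mean from 69 to 86 of 123 (87 with all), and the GMP ratio from 1.91 to 10.1 (4.41 with all). Other size factors gave LSK ratios of 0.630 and 0.629 and GMP ratios of 4.37 and 4.36, and both ratios kept their direction under every alternative run. Calls depended more on the tool. In LSK edgeR called 4 genes, 27 without the filter and 3 to 11 with a library left out (7 without KO-1333 and 11 without CTRL-1326), and DESeq2 called 21. In GMP edgeR called 6 genes, 50 without the filter and 1 to 172 with a library left out (2 without KO-178, 2 without KO-179, 172 without KO-352 and 1 without CTRL-350), DESeq2 721 and limma-voom 0. The count of Ighv members called in GMP was 0, with 0 to 2 when a library was left out and 1 with DESeq2. The cause of these differences was not tested. No paired analysis was possible because no title number occurs in more than 1 group. Many segments had few reads, and 0 reads in a library allow up to 3 there. Reads of near-identical segments cannot be assigned with certainty.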

Other observations

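Kappa segments were set beside 2 heavy chain segments that varied strongly between LSK libraries. Both kappa segments below were picked after their values were seen, out of many that could be paired, and no test was made. Ighv11-2 is known in mice to pair with Igkv14-126 in phosphatidylcholine-binding B-1 cells. Igkv14-126 held 253, 0 and 266 reads in KO and 95 and 168 in CTRL, where Ighv11-2 held 122, 0 and 97 in KO and 4 and 185 in CTRL. KO-1333 had no read of either segment. Igkv15-103 held 304, 127 and 116 reads in KO and 240 and 751 in CTRL, where Ighv7-1 held 251, 59 and 65 in KO and 253 and 825 in CTRL. CTRL-1330 was the highest library for both. In GMP Igkv15-103 held 120, 172 and 0 reads in KO and 0 and 1 in CTRL, whereas Ighv7-1 held 1, 1 and 0 in KO and 0 and 19 in CTRL, so this likeness was not seen there.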
